A study of Mus musculus with 6 samples.

Results

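The interneuron subtype of the neonatal mouse cortex comprised the 1109 cells that the study's annotation calls interneurons, of 18393 cells in all, or of 17280 when doublets (droplets holding more than 1 cell) were left out. Members were taken by this label alone; the authors had set it from clusters of cells and their marker genes. They came from each of the 6 mice, with 305, 59 and 168 cells in WT 1, WT 2 and WT 3 and 228, 192 and 157 cells in *Fmr1*-KO 1, *Fmr1*-KO 2 and *Fmr1*-KO 3. The study asked how loss of FMRP, the RNA-binding protein encoded by *Fmr1* and missing in fragile X syndrome, changes the cell types of the cortex. Single cells were captured with InDrop, which puts a random tag, the unique molecular identifier or UMI, on every transcript it captures, so that PCR copies count once.

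The WT mice were FVB.129P2-Pde6b+ Tyrc-ch/AntJ animals. The *Fmr1*-KO mice had the same background, including the Pde6b+ and Tyrc-ch alleles, and carried the constitutive *Fmr1*tm1Cgr allele in all cells. Cortex of both hemispheres was taken from 3 mice per genotype, of both sexes, on postnatal day 5, so that n = 3 mice per genotype throughout. Batch 1 (V2 beads) held WT 1, *Fmr1*-KO 1 and *Fmr1*-KO 2, and batch 2 (V3.8 beads) held WT 2, WT 3 and *Fmr1*-KO 3. Batch effects and bead effects cannot be told apart.

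Cortical interneurons release GABA, the main inhibitory transmitter, and reach the cortex by tangential migration from the ganglionic eminences of the ventral forebrain. Cells of the medial eminence keep the transcription factor *Lhx6* and give rise to interneurons with somatostatin (*Sst*) or parvalbumin (*Pvalb*), whereas cells of the caudal eminence express *Prox1*, *Adarb2* and often the serotonin receptor *Htr3a* and include those with *Vip*. The lateral eminence gives rise to striatal projection neurons and, with the postnatal subventricular zone, to neurons that migrate to the olfactory bulb, and *Meis2*, *Sp8*, *Tshz1*, *Pbx3*, *Etv1* and *Pax6* are transcription factors used along that route. *Sp8* is also a marker of caudal eminence origin.

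The markers tied to the label were unevenly present. Levels are given as CPM, the UMIs of a gene per 1000000 UMIs of the interneurons of a mouse, and compared within a gene. *Gad1* (a GABA-synthesizing enzyme) was found in 41.3% of the interneurons, at 394, 379 and 355 CPM in WT and 315, 344 and 412 CPM in *Fmr1*-KO mice, a narrow range. Its next highest subtype, excitatory neurons with pooled cells, had 57.4 CPM. *Gad2*, the other such enzyme, reached 522 ± 72.4 CPM (SD, n = 6 mice), and 202 in excitatory neurons. *Dlx1*, a homeobox gene of inhibitory lineages, was found in 72.1% of the cells, and its level exceeded that of ganglionic cells, the proliferating precursors, by less than the SD between mice. *Lhx6* was found in 6.31% of the interneurons and *Npas1*, a transcription factor of caudal and pallidal lineages, in 2.16% (39 UMIs in all). *Npas1* was at 12.9 ± 11.6 CPM and thus below the 105 CPM of the first OPC subtype. *Meis2*, which is not among the markers of the label, was found in 75.4% of the cells, at 1246 ± 380 CPM against 511 in ganglionic cells and 148 in excitatory neurons. Among subtypes with fewer than 100 cells, the SVZ cells had 1666 CPM. The label was therefore met for GABA synthesis and *Dlx1*, while a UMI of the defining marker of medial origin was found in few cells; at this depth a low gene can go undetected in cells that express it.

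The interneurons had a median of 2469 UMIs and 1409 genes, and their summed UMIs ranged from 160754 in WT 2 to 884188 in WT 1. A UMI was found for 14493 of the 17418 genes. Droplets also pick up free RNA, and *Lhx6* was found in 0.247% of microglia and 1.04% of endothelial cells (median 2655.5 and 3687 UMIs per cell). These shares were below that of the interneurons as a whole. Of the clusters described below, however, 3 and 9 had *Lhx6* in only 0.946% and 1.08% of their cells. Summed levels of astrocyte markers (20 genes) were 1101 to 1642 CPM in WT and 1058 to 1472 in *Fmr1*-KO interneurons, those of excitatory markers (11 genes) 597 to 1321 and 867 to 1058. Microglia markers (10 genes) reached at most 73.7 CPM and oligodendrocyte lineage markers (10 genes, *Mog* at 0) at most 342. Endothelial markers (10 genes) were 43.1 to 49.8 CPM in WT interneurons and 88.7, 388 and 40.4 in *Fmr1*-KO 1, 2 and 3. Some cell barcodes occurred in more than 1 library. Of 179 such pairs within a mouse that involved an interneuron, 84.4% had the same subtype, against 4.92% of 61 pairs between mice. Keeping each shared barcode of a mouse once left 994 of the 1109 cells, and results were recomputed with these.

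The annotation divides the subtype into 4 clusters, numbered 3, 9, 10 and 14, which are described here without a test because the same genes were used to form them. Cluster 3 held 423 cells (38.1%), cluster 9 held 277 (25.0%), cluster 10 held 316 (28.5%) and cluster 14 held 93 (8.39%). Their median depth was 2975, 1126, 2722 and 5092 UMIs per cell, so that cluster 9 was shallow and cluster 14 deep. *Meis2* had a UMI in 89.8%, 75.5% and 75.6% of the cells of clusters 3, 9 and 10 and in 8.6% of cluster 14. *Lhx6* showed the opposite distribution, with 0.946%, 1.08%, 2.85% and 58.1% in the same order.

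Cluster 14 had the highest levels of several genes of medial lineage and of neuropeptide genes, but not of *Htr3a*, of which it held 4 of 279 UMIs. Over the pooled cells of a cluster, *Maf*, a transcription factor of the medial lineage, was at 15.0, 60.1 and 88.3 CPM in clusters 3, 9 and 10 and at 770 in cluster 14. The secreted neurexin ligand *Nxph1* was at 565 CPM in cluster 14 and at most 63.7 in the other 3. The neuropeptide genes *Npy* and *Sst* were at 294 and 291 CPM there, to a large part from single cells. One cell held 95 of the 185 *Npy* UMIs of the cluster, and the highest cells for *Sst* held 80 and 60 of its 183 UMIs. *Vip* (194 CPM) and *Crh* (92.3 CPM), neuropeptides found in caudal-type cells, had no UMI in clusters 3 and 9, and *Crh* none in cluster 10. *Slc32a1*, the vesicular GABA transporter, was also highest in this cluster (476 CPM), against at most 177 in the other 3. *Pvalb* and *Nos1* had no UMI in any interneuron. Its 10 leading genes against the next cluster were *Ramp3*, *Col19a1*, *Crh*, *Adra1b*, *Ppargc1a*, *Gabrd*, *Igf1*, *Kcnip2*, *Hapln1* and *Adcy1*.

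Within cluster 14 the markers divided among the cells. Of the 93 cells, 54 had a UMI of *Lhx6*, 20 had one of *Prox1*, *Htr3a* or *Adarb2*, 2 had both and 21 had neither. *Npy* was found in 22 cells, 17 of them with *Lhx6*, and *Sst* in 9 cells, 7 of them with *Lhx6*. *Vip* was also found in 9 cells, of which 0 had *Lhx6* and 0 had *Sst*. A count of 0 among 9 cells allows a share of up to 33.3% with a UMI, by counting error only, and says nothing of transcripts that were not captured. *Reln*, the extracellular protein reelin, was found in 38 cells, *Cck* in 20, *Crh* in 12, and *Tac2* and *Cort* in 7 each. One *Fmr1*-KO 1 cell of this cluster held 473 UMIs of *Avp* (vasopressin) among its 16567 UMIs, and 7 other cells of its library had 1 each.

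Clusters 3, 9 and 10, with 1016 cells (91.6%), carried the lateral eminence and olfactory bulb list instead. *Meis2* was at 1553, 2036 and 1720 CPM in clusters 3, 9 and 10 and at 12.7 in cluster 14. *Sp8*, which also marks caudal origin, was at 436 and 490 CPM in clusters 3 and 9, at 123 in cluster 10 and at 30.2 in cluster 14. *Pax6* was arranged alike, with 316 CPM in cluster 3, 87.3 in cluster 10 and 4.78 in cluster 14, and *Dlx1* had 1330, 1100, 506 and 269 CPM in clusters 3, 9, 10 and 14. *Tshz1* and *Pbx3* were highest in cluster 10, at 1579 and 864 CPM, against 427 and 171 in cluster 3. *Htr3a*, one of the study's markers of the subtype, was at 141, 109, 51.3 and 6.37 CPM and thus lowest in the cluster that held *Vip*.

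Cluster 10 differed from clusters 3 and 9 in further genes of ventral forebrain lineages. *Foxp2*, a transcription factor of striatal and other projection neurons, was at 789 CPM against at most 77.3 in the other clusters, and *Six3*, a forebrain homeobox gene, at 163 against 8.59. *Isl1*, a homeobox gene of direct-pathway striatal neurons, was at 122 CPM in cluster 10, and 119 of its 119 UMIs in interneurons lay there. By mouse this came to 81, 0 and 9 UMIs in WT and 28, 1 and 0 in *Fmr1*-KO mice, so that WT 1 held most of them. *Bcl11b*, a zinc finger gene of striatal and deep-layer neurons, was at 1306 CPM against 505 or less. The dopamine receptor gene *Drd2* had 14 UMIs in cluster 10 (14.4 CPM). Cluster 3 was led by the DNA replication genes *Rrm2* (88.7 CPM), *Mcm4* (63.1) and *Mcm6* (134), against 9.24, 12.3 and 37.2 CPM in the next cluster, while 8 and 3 of its 423 cells were assigned to S and G2/M phase, against 10 and 11 of 277 cells in cluster 9. *Ccnd2*, a cyclin that many newborn neurons retain, was at 5769 ± 1546 CPM (SD, n = 6 mice) in cluster 3, 3109 ± 1228 in cluster 9 and 326 ± 134 (n = 5 mice with 10 or more cells) in cluster 10.

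**Figure D1:**
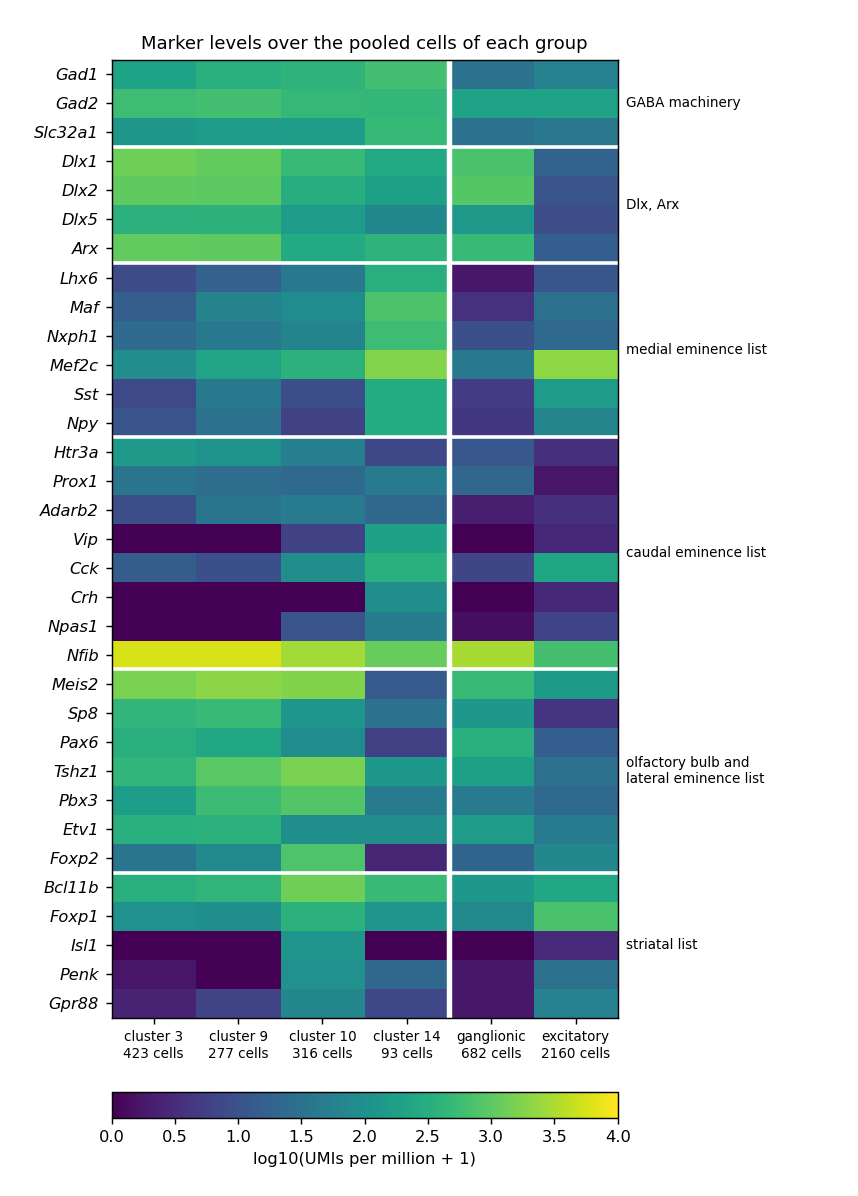
Levels of marker genes in clusters 3, 9, 10 and 14 of the interneuron subtype and in ganglionic and excitatory cells, as the colour-coded log10 of CPM plus 1 over pooled cells, with gene lists named at the right. *Lhx6*, *Maf*, *Nxph1*, *Sst*, *Npy* and *Vip* are brightest in cluster 14 among the 4 clusters, whereas *Meis2* (12.7 CPM in cluster 14, 1553 or more in the others), *Sp8* and *Pbx3* are brightest in clusters 3, 9 and 10.

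These transcripts were not limited to the subtype. Of 168 cells with a UMI of *Lhx6* in the whole table, 70 were interneurons (54 of them in cluster 14) and 47 were excitatory neurons. Of 360 cells with *Sst*, 35 were interneurons and 109 excitatory neurons, and the highest cell among the latter had 450 UMIs of it. *Htr3a* was less spread, with 150 of 209 cells (71.8%) among interneurons. *Vip* was found in 33 cells, 11 of them interneurons.

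Next, the genes with the largest ratio to the next subtype of at least 100 cells were listed, among genes at 50 CPM or more. Leaving *Avp* aside, which came from 1 cell, they were *Vip*, *Lhx6*, *Prokr2*, *Htr3a*, *Gad1*, *Slc32a1*, *Synpr*, *Rgs8*, *Zfp704*, *Pbx3*, *Nrxn3*, *Tshz1*, *Srrm4* and *Shb*. *Prokr2*, a receptor for prokineticin, which guides neuroblasts to the olfactory bulb, was at 130 ± 21.0 CPM (SD, n = 6 mice) against 17.3. The synaptic vesicle gene *Synpr* was at 275 ± 79.2 CPM against 63.7 in excitatory neurons. *Zfp704*, a zinc finger gene found in 79.4% of the cells, was at 1116 ± 121 CPM against 330. *Nrxn3*, a presynaptic adhesion molecule, was at 833 ± 51.7 CPM against 285 in excitatory neurons and varied little between mice. *Vip* (53.9 ± 44.7 CPM) and *Lhx6* (98.6 ± 69.1 CPM) varied most in relation to their means.

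The bases before the transcription start are shown for one gene from each side, to give the sequence context of *Meis2*, carried by clusters 3, 9 and 10, and *Mef2c*, carried by cluster 14. Both are the 120 bases before a RefSeq start on GRCm38.p6, written 5′ to 3′ on the strand of the gene. Capitals mark TAATTA, the core recognized by many homeodomain proteins.
*Meis2*, chr2:116064620-116064739, minus strand: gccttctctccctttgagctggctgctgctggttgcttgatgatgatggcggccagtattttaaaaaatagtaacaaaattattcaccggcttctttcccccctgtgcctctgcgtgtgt
*Mef2c*, second of 3 starts, chr13:83523536-83523655, plus strand: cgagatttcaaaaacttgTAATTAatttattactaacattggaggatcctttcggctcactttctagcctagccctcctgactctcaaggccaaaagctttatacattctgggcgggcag
The *Meis2* stretch did not contain these letters, and neither did the 250 bases before the other two *Mef2c* starts. TAATTA was searched on both strands of the 250 bases before each start, and so was TGACAG, the core recognized by Meis proteins. *Lhx6* (3 starts) and *Nxph1* were looked at in the same way and had neither motif. Among the starts of *Lhx6*, *Meis2*, *Nxph1* and *Mef2c*, only the second of *Mef2c* had either motif, so the printed stretch is not a typical example. TAATTA was present in 4.84% of all 32851 promoters and TGACAG in 15.9%, and in 2.18% and 13.5% of the 6325 promoters of the genes tested between *Lhx6* cells and cells with caudal markers (defined below). Among promoters of genes called higher in *Lhx6* cells and in cells with caudal markers, TAATTA was present in 2.70% (6 of 222) and 1.90% (5 of 263), and TGACAG in 13.1% and 12.2%. A match is a description of the sequence only.

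The share of interneurons differed widely between mice of 1 genotype. Of all cells other than doublets, interneurons were 11.5%, 1.6% and 4.92% in WT 1, WT 2 and WT 3 and 11.2%, 7.47% and 5.35% in *Fmr1*-KO 1, 2 and 3. Of the neurons they were 28.1%, 10.1% and 33.8% in WT and 35.7%, 21.9% and 34.5% in *Fmr1*-KO mice, with WT 2 the lowest. Of interneurons and ganglionic cells together they were 71.9%, 43.4% and 73.4% against 65.9%, 48.2% and 60.9%. The groups overlapped in each share, and two-sided exact permutation tests gave p = 0.60, 0.50 and 0.60 (adjusted p = 0.70 over 7 shares), where 3 mice against 3 cannot go below 0.10. On the cell numbers, the quasi-likelihood test of edgeR gave a log2 fold change of 0.21 (SE 0.56, false discovery rate or FDR = 0.87) for interneurons and called 0 of 18 subtypes (0%), with 0 at an unadjusted p under 0.05, and exact permutation tests called 0 of the 7 shares. Leaving out WT 2 turned the interneuron value to -0.12, leaving out *Fmr1*-KO 3 to -0.30, and TMM, the library scaling of edgeR, to -0.0087.

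The make-up of the subtype by cluster also overlapped between genotypes. Cluster 14 was 6.56%, 16.9% and 13.7% of the interneurons in WT and 2.19%, 6.77% and 14.01% in *Fmr1*-KO mice. Cluster 10 was 33.8%, 13.6% and 14.3% against 32.5%, 26.0% and 36.3%. The difference in cluster 10 had opposite signs in the batches, with -4.52 percentage points in batch 1 and 22.4 in batch 2, whereas cluster 14 was lower in *Fmr1*-KO mice in both, by 2.08 and 1.31 points. Exact permutation tests gave p = 0.80, 0.30, 0.30 and 0.50 for clusters 3, 9, 10 and 14 (adjusted p = 0.80, 0.60, 0.60 and 0.67).

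**Figure D2:**
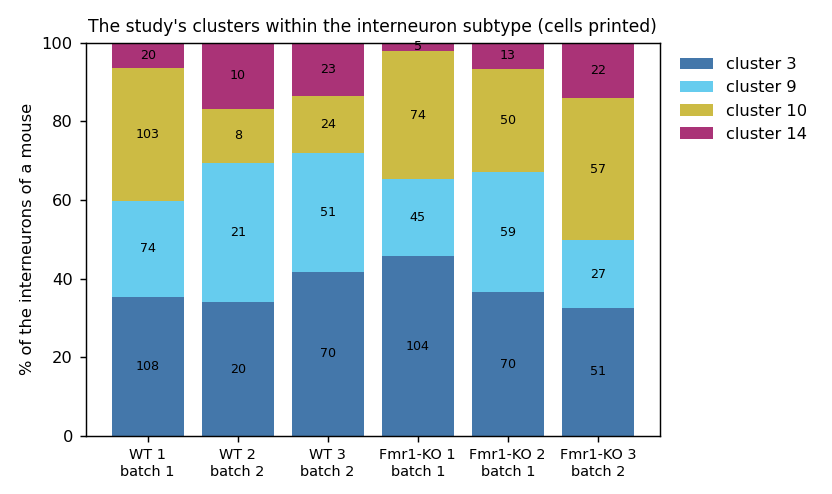
Share of clusters 3, 9, 10 and 14 among the interneurons of each mouse, in percent, with the number of cells printed in each bar segment. Cluster 14 ranges from 2.19% (5 cells) in *Fmr1*-KO 1 to 16.9% (10 cells) in WT 2, and the WT and *Fmr1*-KO mice overlap for each cluster.

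Markers of origin were compared after each cell had been thinned to 700 UMIs, since deeper cells show more genes; all 1109 interneurons had enough UMIs. A UMI of *Lhx6* was then found in 2.95%, 5.08% and 2.98% of WT interneurons and in 0.877%, 1.04% and 3.18% of *Fmr1*-KO interneurons, mouse by mouse. *Fmr1*-KO 3 thus lay above WT 1 and WT 3. The means were 3.67% ± 1.22 and 1.70% ± 1.29 (SD, n = 3; exact permutation p = 0.30, adjusted p = 0.70). The differences within batches were -1.99 and -0.85 percentage points. A UMI of *Prox1*, *Htr3a* or *Adarb2* was found in 9.18%, 13.6% and 11.9% against 11.8%, 5.21% and 5.73% (exact permutation p = 0.20, adjusted p = 0.70). That difference of -3.95 points became 1.00 point when cells were thinned to 1500 UMIs, which left 805 cells. *Meis2* was found in 55.1%, 47.5% and 57.7% against 62.7%, 64.1% and 42.7% (exact permutation p = 0.60, adjusted p = 0.70), and its difference of 3.06 points became -0.06 without *Fmr1*-KO 1 and -0.73 without *Fmr1*-KO 2. In all, 26 thinned cells had *Lhx6*, 102 a caudal marker, 626 *Meis2* and 0 both *Lhx6* and a caudal marker. Without thinning 6.31%, 22.2% and 75.4% of the interneurons had *Lhx6*, a caudal marker and *Meis2*.

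The question of how interneurons with the medial marker differ from those with caudal markers was addressed within mice. This split largely followed the clusters, which had been formed from the same genes, so the counts below describe the cells and no p-value is given for single genes. There were 62 cells with a UMI of *Lhx6* and none of *Prox1*, *Htr3a* or *Adarb2* (17, 5 and 14 in WT, 4, 5 and 17 in *Fmr1*-KO mice). They were compared with 238 cells with a caudal marker and no *Lhx6* (55, 17 and 34, and 65, 40 and 27), called CGE-marker cells here. The name gives this rule and not an origin: *Meis2* of the lateral eminence list was at 1255 ± 476 CPM in these cells. The 4 genes that defined the groups were not tested. Of 6231 genes, 457 (7.33%) passed FDR under 0.01 and a change of at least 15%, 210 (3.37%) higher in *Lhx6* cells and 247 (3.96%) higher in CGE-marker cells. The groups differed in cluster and depth: 52 *Lhx6* cells belonged to cluster 14, whereas the CGE-marker cells came from clusters 3 (127), 10 (54), 9 (39) and 14 (18), and the median was 5082 against 3050 UMIs per cell. With all cells thinned to 700 UMIs before the split, which left 26 *Lhx6* cells and 102 CGE-marker cells, 38 genes passed, 0 of them higher in *Lhx6* cells, and 28 of the 38 were among the 457. Without TMM the numbers were 303 higher and 203 lower in *Lhx6* cells, and without *Fmr1*-KO 3 the total was 293.

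The 12 smallest p-values on the side of the *Lhx6* cells included *Mef2c*, *Nxph1*, *Adcy1*, *Gria1*, *Syt1* and *Ppargc1a*, each at its highest in cluster 14 among the 4 clusters. *Mef2c*, an activity-linked transcription factor, was at 2136 ± 945 CPM (SD, n = 6 mice) in *Lhx6* cells and 179 ± 62.6 in CGE-marker cells, or 3.24 on the log2 scale (SE 0.24). *Nxph1* was at 783 ± 96.4 against 35.0 ± 18.4 CPM (4.06, SE 0.32). *Adcy1*, an adenylate cyclase stimulated by calcium, was at 1116 ± 790 against 107 ± 78.1 CPM (2.99, SE 0.27) and the AMPA receptor gene *Gria1* at 967 ± 206 against 96.9 ± 43.7 CPM (2.99, SE 0.27). Each of these genes was higher in *Lhx6* cells in 6 of 6 mice. So were *Mpped1*, the splicing regulator *Rbfox1*, the phosphatase subunit *Ppp2r2b*, the sodium pump subunit *Atp1b1* and the calcium sensor of vesicle release *Syt1*, with log2 fold changes from 1.92 to 3.31. *Thsd7a* was higher in 5 of 6 mice (2.72, SE 0.29). *Ppargc1a*, a coactivator of mitochondrial genes, was higher in 4 mice and without a UMI on either side in the other two. In thinned cells none of these genes passed: the values were 1.89 (SE 0.63) for *Mef2c*, 2.40 (SE 0.86) for *Nxph1*, 2.31 (SE 0.81) for *Gria1*, 0.64 (SE 0.52) for *Atp1b1* and 0.26 (SE 0.87) for *Syt1*, beside a median of -0.84 over all genes.

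On the side of the CGE-marker cells, several of the 12 smallest p-values belonged to transcription factors of the lateral eminence list. *Meis2* was at 30.2 ± 35.9 CPM in *Lhx6* cells and 1255 ± 476 in CGE-marker cells (-5.60 on the log2 scale, SE 0.35). *Ccnd2* was at 208 ± 292 against 3207 ± 1069 CPM (-4.50, SE 0.25). *Sp8* and *Pax6* each had 3 UMIs in *Lhx6* cells, and 282 and 208 in CGE-marker cells. *Igfbpl1* and *Islr2* of immature neurons had log2 values of -3.39 and -2.90, the nuclear factor I genes *Nfib* and *Nfix* -2.39 and -2.15, *Dlx1* -2.40, *Pbx3* -5.25 and the antiproliferative gene *Btg1* -2.54. These genes, and *Nfia* of the same nuclear factor family, were lower in *Lhx6* cells in 6 of 6 mice. In thinned cells *Ccnd2*, *Meis2*, *Igfbpl1*, *Nfib*, *Islr2*, *Btg1* and *Dlx1* passed again, whereas *Sp8*, *Pax6*, *Pbx3*, *Nfia* and *Nfix* kept their sign but did not pass. That fit had a median of -0.84 over all genes, and all of its 38 calls lay on the side of the CGE-marker cells.

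**Figure D3:**
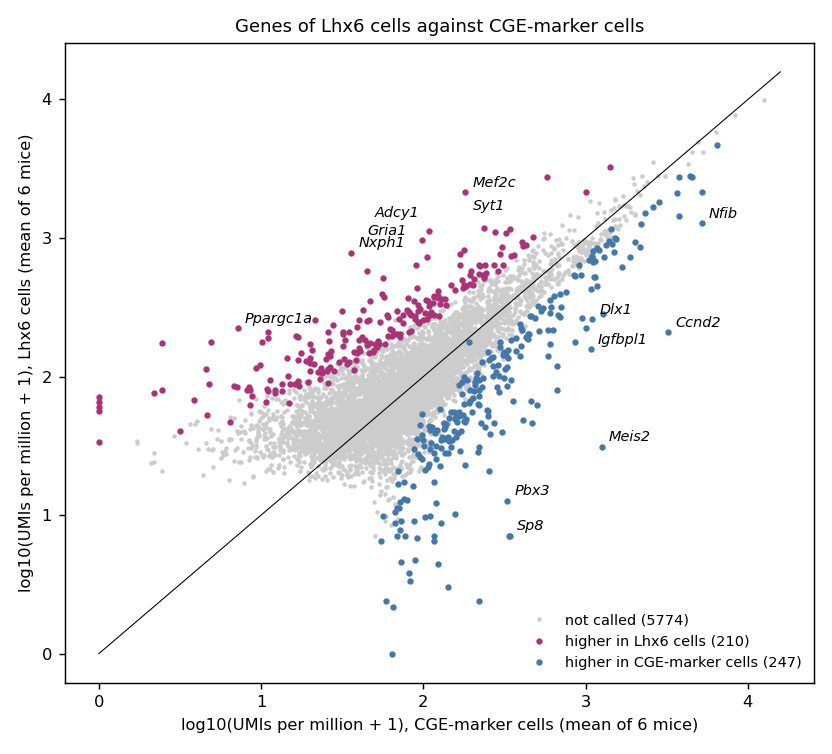
Mean level of each tested gene in CGE-marker cells (x axis) and in *Lhx6* cells (y axis), as log10 of CPM plus 1 over 6 mice, with the line of equal levels. Most of the 210 genes higher in *Lhx6* cells lie above the band of other genes, the 247 genes higher in CGE-marker cells lie mostly below it, and *Meis2*, *Sp8* and *Pbx3* lie far below.

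Described by gene list, against a background of 3.37% called higher and 3.96% called lower in *Lhx6* cells, more genes of the lists of neuronal function were called higher than lower in *Lhx6* cells at full depth. In thinned cells none of the higher calls below remained. A gene was tested when it reached the minimum share of cells in either group, and the *Lhx6* cells were deeper. Genes with few or no UMIs in CGE-marker cells, such as *Gabrd*, could thus enter through the *Lhx6* cells alone. The part of this filter in the surplus of higher calls, here and in the lists of the next paragraph, was not tested. Of 30 tested genes of vesicle release 10 were higher and 1 lower, with a median log2 fold change of 0.81 (all genes -0.04); examples were *Snap25* (1.46, SE 0.29), a SNARE protein, *Cplx1* (1.71, SE 0.33), its complexin partner, and *Sv2a* (1.19, SE 0.25), while *Syt11* was lower (-0.85, SE 0.23). Of 18 glutamate receptor genes 7 were higher and 0 lower, among them the AMPA receptor genes *Gria3* and *Gria4*, the NMDA receptor gene *Grin2b* and the metabotropic receptor genes *Grm3* and *Grm5*. Of 23 ion channel genes 6 were higher and 0 lower, among them the sodium channels *Scn1a* (134 against 13.4 CPM) and *Scn2a1* (352 against 105 CPM). Of 14 genes of GABA receptors and chloride transport 3 were higher and 0 lower, and *Gabrd*, a subunit of extrasynaptic receptors, had no UMI in CGE-marker cells. Of 27 synaptic adhesion genes 5 were higher, such as *Ptprd* (1.79, SE 0.24) and *Cntn1* (1.81, SE 0.32), and *Ptprs* was lower.

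The lists of origin and development differed as well. Of 10 tested medial list genes 7 were higher in *Lhx6* cells, among them *Sox6* and *Npy*, and *Etv1*, which is on the lateral list too, was lower. Of 9 caudal list genes 6 were lower, such as the nuclear receptor *Nr2f1* (214 against 517 CPM) and the cannabinoid receptor *Cnr1* (45.1 against 468 CPM). Of 8 genes of the lateral eminence and olfactory list 7 were lower and 0 higher. Of 29 migration genes 3 were higher (*Unc5c*, *Unc5d* and *Efna5*, which encode guidance receptors and a ligand) and 3 lower (*Sox11*, *Sox4* and *Tubb3*, genes of immature neurons). Of 80 ribosomal protein genes 13 were lower and 0 higher, and 77 had values below 0 with a median of -0.50 (52.2% of all genes were below 0). Of 77 respiratory chain genes 3 were higher, and 71 had values above 0 with a median of 0.41 (47.8% of all genes were above 0). *Gad1* was at 610 ± 151 CPM in *Lhx6* cells and 326 ± 136 in CGE-marker cells (0.65, SE 0.24, not called), and *Gad2* at 516 ± 158 and 603 ± 49.5 CPM (-0.42, SE 0.23, not called).

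The comparison of genotypes began with the targeted gene. *Fmr1* had 56, 13 and 35 UMIs in WT interneurons and 8, 12 and 11 in *Fmr1*-KO interneurons, which came to 63.3, 80.9 and 68.6 CPM against 10.9, 23.0 and 23.4 CPM. The genotypes did not overlap, although no *Fmr1*-KO mouse was at 0. It was found in 9.92% of the interneurons and so did not reach the minimum of 15% of cells for the main test. When all 14493 genes with a UMI were tested, its value was -1.83 on the log2 scale (SE 0.34, edgeR FDR = 1.9e-04). With the filterByExpr filter of edgeR, which kept 8187 genes, it was -1.80 (SE 0.33) and was not called (edgeR FDR = 0.11). UMIs were counted near the 3′ end of genes and do not read the interrupted exon directly.

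None of the genes in the main test was called. Of 3177 genes found in at least 15% of the interneurons, edgeR called 0 (0%) at FDR under 0.01 and a change of at least 15%, and 144 (4.53%) had an unadjusted p under 0.05, 68 higher (2.14%) and 76 lower (2.39%). DESeq2 also called 0, with 31 at an unadjusted p under 0.05. In bulk sums of cells, fewer cells of a kind and less RNA per cell cannot be told apart.

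The smallest p-values among lower genes were those of *Adcy1* and *Mef2c*. *Adcy1* was at 141, 684 and 729 CPM in WT and at 84.6, 82.2 and 423 CPM in *Fmr1*-KO interneurons. The groups overlapped, since WT 1 of batch 1 lay below *Fmr1*-KO 3 of batch 2, and within batches the values were -0.76 and -0.74 on the log2 scale (fit -0.75, SE 0.14, edgeR FDR = 0.095). *Mef2c* was at 499, 1138 and 852 CPM against 293, 235 and 661 CPM (-0.73, SE 0.13, edgeR FDR = 0.095), with -0.92 and -0.58 within batches. When WT 3 was left out *Mef2c* passed (-0.86, edgeR FDR = 0.0078), the one call among the 6 fits that each leave out a mouse. Removing the 93 cells of cluster 14 gave *Mef2c* -0.35 (SE 0.21, edgeR FDR = 1.00) and *Adcy1* -0.75 (SE 0.27, edgeR FDR = 1.00).

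Cluster 14 held 79.6% of the *Adcy1* UMIs and 67.6% of the *Mef2c* UMIs but 19.1% of all UMIs of the interneurons. Its part of all UMIs was 11.2%, 39.6% and 42.2% in WT and 5.70%, 12.3% and 30.7% in *Fmr1*-KO mice, so that WT 1, *Fmr1*-KO 1 and *Fmr1*-KO 2, the mice of batch 1, were lowest. *Mef2c* did not follow this order throughout, since *Fmr1*-KO 2 with 12.3% had 235 CPM and WT 1 with 11.2% had 499. The part of cluster 14 in the genotype values was not tested beyond the fit without it. Inside the cluster, *Adcy1* was at 374, 1664 and 1659 CPM in WT and 503, 328 and 1266 CPM in *Fmr1*-KO mice. In the other 3 clusters it was at 112, 41.2 and 50.8 against 59.3, 47.9 and 49.1 CPM. Cells with 3 or more UMIs over the astrocyte, endothelial, microglia and oligodendrocyte lineage markers were then left out, which kept 456 of 1109 interneurons and 19 of 93 in cluster 14. *Adcy1* turned to 0.63 (SE 0.42) and *Mef2c* to 0.28 (SE 0.30), neither called. The cells kept were shallower, with a median of 1544.5 UMIs against 3041 in those removed. *Fabp7* of the astrocyte list alone was found in 42.0% of the interneurons. Depth and foreign RNA are thus not separated by this filter.

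**Figure D4:**
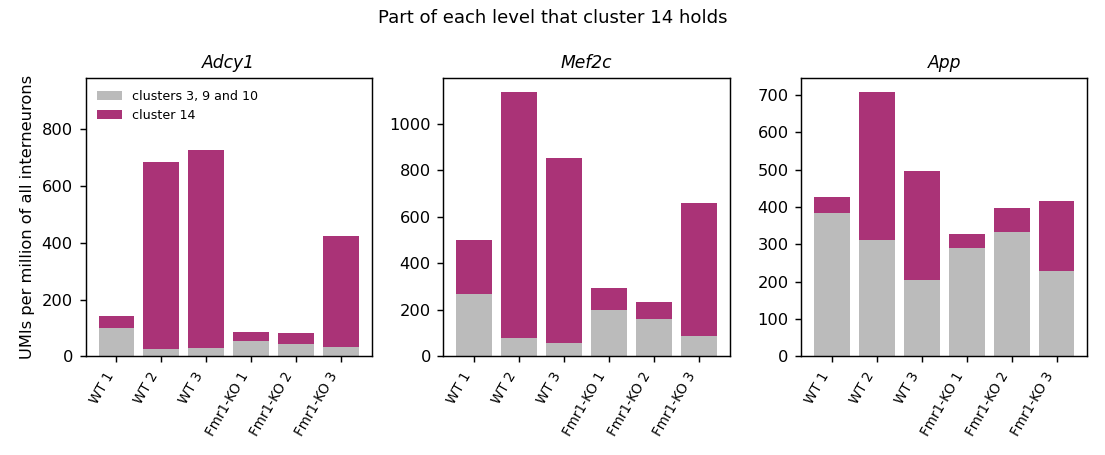
Levels of *Adcy1*, *Mef2c* and *App* in the interneurons of each mouse, in CPM, stacked into the part from clusters 3, 9 and 10 (grey) and the part from cluster 14 (magenta). For *Adcy1* cluster 14 adds 41.8 of 141 CPM in WT 1 and 40.2 of 82.2 in *Fmr1*-KO 2 of batch 1, and 659 of 684 in WT 2 and 389 of 423 in *Fmr1*-KO 3 of batch 2.

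Other genes below 0 in both batches had smaller or less certain differences. *Atp13a2*, a lysosomal transporter, was at 152, 199 and 176 CPM in WT and 99.6, 84.2 and 115 CPM in *Fmr1*-KO mice, without overlap (-0.69, SE 0.18, edgeR FDR = 0.60). *Dusp8*, a phosphatase of MAP kinases, was at 408, 373 and 425 against 284, 291 and 317 CPM, also without overlap (-0.44, SE 0.13, edgeR FDR = 0.95). Groups did not overlap for 218 of the 3177 genes (6.86%). *Ccng2*, *Olfm2*, *Ybey* and *Mapt*, which encodes the microtubule protein tau, had log2 values of -0.69, -0.63, -0.60 and -0.26 with overlapping groups. *Adcy1* and *App* are genes the study itself picked from these cells, so their direction is not independent evidence. *App*, the amyloid precursor, was at 426, 709 and 496 against 327, 398 and 417 CPM (-0.34, SE 0.15, edgeR FDR = 1.00). Cluster 14 held 28.7% of its UMIs.

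Among genes with higher values, *H2afv*, a histone variant, was at 185, 180 and 155 CPM in WT and 256, 296 and 291 CPM in *Fmr1*-KO interneurons, without overlap (0.69, SE 0.15, edgeR FDR = 0.38). *Apoe*, a lipid carrier made mainly by astrocytes, was at 83.7, 99.5 and 70.5 against 175, 153 and 125 CPM (0.86, SE 0.20, edgeR FDR = 0.38). The summed astrocyte markers overlapped between genotypes, with ranges given above, and the pooled astrocytes had 9473 CPM of *Apoe*. The part of RNA from astrocytes in this value was not tested. *Rps27*, a ribosomal protein gene, was at 252, 174 and 278 against 351, 461 and 393 CPM (0.69, SE 0.16, edgeR FDR = 0.39). *Tshz1* was at 769, 404 and 501 against 956, 861 and 778 CPM (0.46, SE 0.12, edgeR FDR = 0.60) and *Pbx3* at 416, 156 and 214 against 446, 513 and 408 CPM (0.55, SE 0.17, edgeR FDR = 1.00). Without cluster 10, in which *Tshz1* and *Pbx3* were highest, their values were -0.06 and -0.32, and *Pbx3* had -0.013 in thinned cells. *Ptn* and *Zswim6* had log2 values of 0.61 and 0.45 and did not overlap between groups.

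**Figure D5:**
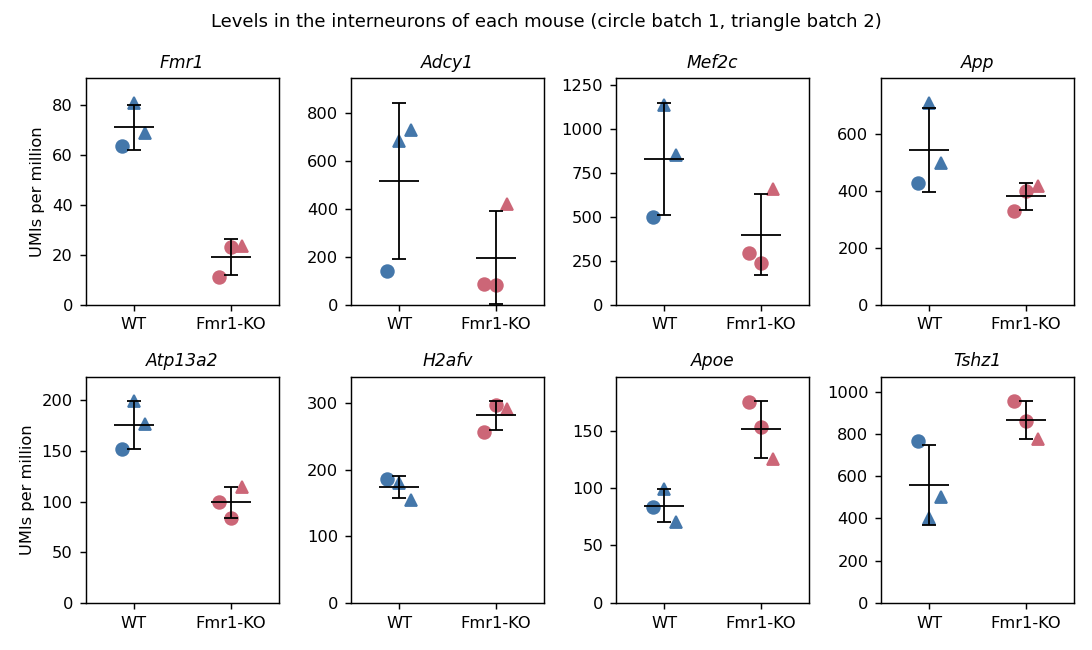
Levels of 8 genes in the interneurons of each mouse, in CPM, with circles for batch 1, triangles for batch 2, and the mean ± SD of 3 mice in black. The WT and *Fmr1*-KO points are apart for *Fmr1*, *App*, *Atp13a2*, *H2afv*, *Apoe* and *Tshz1*, and overlap for *Adcy1* and *Mef2c*.

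Without a minimum share of cells edgeR called 9 of 14493 genes, 2 of them higher in *Fmr1*-KO interneurons, but with filterByExpr it called 0 of 8187 (lowest edgeR FDR = 0.11, and 356 genes with an unadjusted p under 0.05). Besides *Fmr1*, *Mef2c* and *Adcy1* these were genes in few cells. *Lhx6* was at 91.6, 193 and 143 CPM in WT and 12.3, 28.7 and 123 CPM in *Fmr1*-KO mice, with overlap (-1.17, SE 0.25, edgeR FDR = 0.0040). Inside cluster 14 it was at 555, 330 and 321 CPM in WT, from 55, 21 and 69 UMIs in 20, 10 and 23 cells. In *Fmr1*-KO mice it was at 120, 172 and 353 CPM there, from 5, 11 and 51 UMIs in 5, 13 and 22 cells. The values of *Fmr1*-KO 1 and *Fmr1*-KO 2 thus rested on few UMIs. *Hapln1*, a perineuronal net protein gene, had 16, 1 and 32 UMIs against 2, 1 and 2. *Crym* and *Isl1* had 80 of 94 and 81 of 119 UMIs in WT 1, and *Avp* lay in 1 cell. *Cldn5*, an endothelial tight junction gene and itself on the endothelial list, had 88 of its 142 UMIs in *Fmr1*-KO 2.

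Gene lists were described by their counts, with 49.1% of the 3177 tested genes below 0 and 50.9% above, and 0 list members called. Of 20 tested vesicle release genes 15 were below 0 (median -0.09, and 0.08 without cluster 14), and of 15 synaptic adhesion genes 11 were below 0 (median -0.15, and -0.04 without cluster 14). Of 18 migration genes 15 were below 0 with a median of -0.04. Of the 20 genes of the medial list only 4, without *Lhx6*, were tested (*Mef2c*, *Etv1*, *Satb1* and *Kcnc1*). These were below 0 with a median of -0.30, and -0.29 without cluster 14. The 5 tested genes of the caudal list had a median of -0.07. The lateral eminence and olfactory list had 4 genes above and 4 below 0. Of 8 genes of GABA metabolism 6 were below 0, and *Gad2* was at 564 CPM in WT and 481 in *Fmr1*-KO mice (-0.29, SE 0.12, edgeR FDR = 1.00). *Gad1* was at 376 and 357 CPM.

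Of 80 tested ribosomal protein genes 67 were above 0 with a median of 0.09, but the median was -0.04 within batch 1 and 0.24 within batch 2. Of 73 respiratory chain genes 41 were above 0 (median 0.01). The FMRP-related genes *Fxr1*, *Fxr2*, *Cyfip1* and *Cyfip2* were all below 0 (median -0.16), led by *Fxr2*, a paralog of *Fmr1*, at 148, 156 and 102 CPM in WT and 111, 99.5 and 76.5 CPM in *Fmr1*-KO mice (-0.53, SE 0.20, edgeR FDR = 1.00). Of 7 genes of the mTOR pathway 4 were below 0 (median -0.02), and of 5 immediate early genes 4 were above 0 (median 0.05).

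To ask whether genotype values in interneurons differ from those in the most similar subtypes, the difference between the subtypes was tested itself, with mice as blocks. Against the 2160 excitatory neurons edgeR called 0 of 4183 genes (0%), with 105 (2.51%) at an unadjusted p under 0.05, and DESeq2 called 0 with 51. Against the 682 ganglionic cells edgeR called 0 of 4414 genes (0%), with 162 (3.67%) at an unadjusted p under 0.05, and DESeq2 called 0 with 25. The smallest p against excitatory neurons belonged to *Cacna1i*, a T-type calcium channel, at 15.6 CPM in WT and 2.58 in *Fmr1*-KO interneurons and 77.0 and 90.4 in excitatory neurons (-2.96, SE 0.76, edgeR FDR = 1.00). Its interneuron levels rested on few UMIs, and it met the minimum share of cells through the excitatory neurons. *Pbx3* was at 262 and 456 CPM in interneurons and 27.2 and 19.0 in excitatory neurons (1.20, SE 0.36, edgeR FDR = 1.00). *Mef2c* had a difference of -0.92 (SE 0.27), which was 0.15 without cluster 14. Of 23 tested synaptic adhesion genes 22 had values below 0 (52.5% of all 4183 genes, and 47.5% above 0).

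Against ganglionic cells *Cenpa*, a centromeric histone of dividing cells, had 2.73 and 18.4 CPM in WT and *Fmr1*-KO interneurons and 542 and 494 in ganglionic cells (3.59, SE 0.89, edgeR FDR = 1.00). *Hist1h2ak*, a histone gene of S phase, had 18.2 and 4.25 CPM against 204 and 330 (-2.78, SE 0.62). The interneuron levels of *Cenpa* and *Hist1h2ak* rested on few UMIs. *Sox6*, a factor of the medial lineage and of progenitors, had 118 and 47.6 CPM in interneurons and 124 and 118 in ganglionic cells (-1.15, SE 0.33, edgeR FDR = 1.00). Of 80 ribosomal protein genes 77 had values above 0 (49.2% of all 4414 genes), with a median of 0.14. Of 74 respiratory chain genes 63 had values below 0 (50.8%), with a median of -0.20. The main fits of subtype differences had no batch by subtype term. In interneurons alone the ribosomal median was -0.04 within batch 1 and 0.24 within batch 2. With a batch by subtype term 1 gene passed in each comparison, *Apoe* (1.51, SE 0.24, edgeR FDR = 0.0048) against excitatory neurons and *Cenpa* (3.91, SE 0.73, edgeR FDR = 0.0029) against ganglionic cells.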

How the data were processed

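There were 17 InDrop libraries, from the cortex of 3 mice per genotype. The authors aligned reads to mm10 with TopHat 2.0.14, counted UMIs near the 3′ ends of RefSeq genes with ESAT ignoring multiply mapped reads, and removed barcodes with few UMIs and erythrocyte genes. Cells in the cluster they labelled as doublets were left out here. The counts were deposited without normalization. The deposited size factor per cell, a scran ratio, was not used. Mouse, subtype, cluster and phase of each cell are those the authors deposited.

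UMIs were summed over the interneurons of each mouse and tested with edgeR 4.0.16 (R 4.3.3) by its quasi-likelihood test, with TMM, batch as a covariate and Benjamini-Hochberg adjustment, on genes found in 15% of the cells or more. Genes at FDR under 0.01 with a change of at least 15% counted as called. The SE of an edgeR value was taken back from its test, as the size of the log2 fold change divided by the square root of the F statistic. It is approximate and fails for values close to no change. Differences between subtypes and between *Lhx6* and CGE-marker cells had the mouse as a block and took genes found in 15% of the cells of either group. Batch values added 0.5 CPM before log2. The tests were also run on simulated counts with a single dispersion and no batch or mouse effect. That setting cannot give their error rates in these data. DESeq2 1.42.0 was an alternative. Exact permutation tests were run with scipy 1.17.1 and tables made with pandas 2.3.3, both under Python 3.11.15. No mouse was dropped. Depth limits precision most in WT 2, with 59 interneurons. Intervals and limits cover counting error only.

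Members and gene lists were chosen with earlier results of these data known. Genes named are marker list members, the 15 with the largest ratio to the next subtype, *Fmr1*, *App* and *Adcy1*, the 8 smallest p per direction with 1 sign in both batches, 5 per direction for subtype differences (of which some are given), 12 per side of the *Lhx6* split, called list members and up to 4 examples a list. Some genes the rule names are not reported here. *Six3*, *Crym*, *Cldn5* and *Hapln1* and the cells described singly were named after their values were seen. The replicate numbers of the labels did not pair the mice: deviations correlated at 0.60 and 0.53 for numbers 1 and 3, which share a batch, and at -0.29 for number 2, which does not. The chi-square per degree of freedom between mice was 1.57 or more, so no 2 samples were the same library.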

Additional observations from a re-analysis of the deposited data

How the results depend on the processing

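The count of genotype calls was 0 in edgeR and DESeq2 and stayed 0 with the replicate number as a block in place of the batch term (120 at an unadjusted p under 0.05); the block changed no call, and gave 0.73 for the interneuron number. It was 9 with no filter on low counts, 0 with filterByExpr and 0 to 1 with a mouse left out. Subtype differences gave 1 call each with a batch by subtype term, and 5 (*Adcy1*, *Grin3a*, *Maf*, *Reln*, *Tcf7l2*) and 2 (*Atp1b1*, *Cenpa*) with no filter. The 457 calls of the *Lhx6* split became 256 with DESeq2 (255 shared), 34 against *Adarb2* cells alone, 179 against *Prox1* cells alone, 38 in thinned cells, 798 at FDR under 0.05 and 293 (without *Fmr1*-KO 3) to 461 with a mouse left out, 537 against *Htr3a* cells and 436 with shared barcodes kept once, an alternative chosen after seeing the data. The interneuron number was -0.0087 with TMM scaling and -0.30 to 0.71 with a mouse left out. The CGE-marker share difference was 1.00 point at 1500 UMIs, and that of *Meis2* -0.73 to 9.97 with a mouse left out. *Pbx3* was -0.013 in thinned cells, and in settings chosen after seeing the data *Tshz1* and *Pbx3* were -0.060 and -0.48 in clusters 3 and 9 and -0.058 and -0.32 without cluster 10; *Mef2c* against excitatory neurons was 0.15 without cluster 14. Leaving out cells with markers of other types kept 456 of 1109 cells (19 of 93 in cluster 14; median 1544 UMIs against 3041 in those removed) and gave *Adcy1* 0.63, *Mef2c* 0.28, *Olfm2* 0.32 and *Mapt* 0.28. The causes were not tested. Depth limits small clusters most, such as the 5 cells of cluster 14 in *Fmr1*-KO 1.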
